A study of Mus musculus with 4 samples.

Results

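Podocytes are the epithelial cells that wrap the capillaries of the glomerulus, and 8 genes of their foot processes were examined on 4 one-colour expression arrays of sorted mouse embryonic kidney cells. The genes were taken by name from a fixed list, Nphs1, Podxl, Synpo, Ptpro, Magi2, Clic5, Plce1 and Cd2ap, and every non-control probe that the scanner files name for them was kept, which gave 8 of the 31829 gene names and 9 of the 39429 probes on the array. All 9 were well above background on all 4 arrays, so none passed a filter through 1 group alone. The tested cells were Six2GFP-positive cells, labelled nephron progenitors (2 arrays), and they were set against Six2GFP-negative cells, the cells without reporter signal (2 arrays). All kidneys were from embryos at E15.5, of hybrid 129 and C57BL/6 background, and cells were separated by fluorescence-activated sorting of dissected kidneys; whether both fractions of a number came from the same kidneys is not given. The labels give no further account of the reporter allele, carry a tamoxifen remark that the protocols do not repeat, and call the negative cells nephron progenitors as well.

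The slit diaphragm is the cell junction that spans the gap between neighbouring foot processes and forms part of the kidney's filter. Nephrin, the product of Nphs1, builds the junction from outside, while adaptors inside the cell tie it to actin, and loss of several of these proteins causes proteinuria. Podocytes arise from nephron progenitors that have left the cap mesenchyme, where Six2 holds them undifferentiated. The label is broad: Podxl and Ptpro sit on the apical surface of the foot process and Synpo on its actin bundles, and Podxl is also made by vascular endothelium and Cd2ap by many cell types.

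Each array read these genes through 60-base probes, of which the first 30 bases are shown, 5′ to 3′, so that what each signal measures can be seen. No sequence is shown for Synpo. All positions are in mm9, and whether a probe lies in coding or untranslated sequence was not assigned here; the Nphs1 probe has a stop codon in every sense reading frame.
Nphs1, chr7:31273569-31273598, plus strand: tgccacatatacacgcccacacgcctgaca
Magi2, chr5:20167092-20167121, plus strand: ttccagcctctccatgtgcatgaaaagtga
Cd2ap, chr17:42930354-42930383, minus strand: cccggtcttaacagaggactccttacactc
Plce1, chr19:38857137-38857166, plus strand: tcacacctgatggatgtgaggttcgtggag
Podxl, chr6:31470435-31470464, minus strand: tgtaaatacaagagccacatgtttatttac
Ptpro, chr6:137411402-137411431, plus strand: ctctgagatatcttggtgcctagccttcac
Clic5, chr17:44416979-44417008, plus strand: caagccttactcaatgtaccacgcctttga

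The 4 arrays were read on 1 slide. The share of spots well above background was 75.2% and 72.5% for positive cells, against 79.1% and 76.8% for negative cells. The lowest signal called well above background was between 8.48 and 11.1 over the 4 arrays, and the 95th percentile of the negative-control spots was at most 3.17. Six2, the gene whose reporter was sorted on, had a signal of 68513 and 75106 in positive cells, against 1425 and 1430 in negative cells, with its probe of highest signal. Precision is limited by having only 2 arrays in each group. Where a group's RNA comes from a mixture of cells, fewer podocytes and less RNA per podocyte cannot be told apart.

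Of the 8 genes, Podxl, Clic5, Ptpro, Nphs1 and Plce1, were lower in Six2GFP-positive cells with their single probe, Cd2ap and Magi2 did not pass the test, and Synpo was lower with 1 of its 2 probes. Thus 6 of 9 probes were lower and none higher in limma at an adjusted p of 0.05, where 39.3% of the 30013 probes tested passed, 18.2% lower and 21.1% higher. At least 2-fold lower were 5 of the 9, against 12.6% of all probes tested. The groups did not overlap for 7 of the 9 probes, against 75.1% of all probes tested, and positive cells were the lower group for 6 of these, against 27.5%. The median log2 difference over the 9 probes was -2.25, and over all probes tested it was 0.15. The members were chosen with earlier results of these data known, so these comparisons with all probes are descriptive and test nothing about the members. Replicates are numbered in the labels, but nothing says they came from separate litters, so p-values measure only the spread between these arrays, which may be technical.

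**Figure D1:**
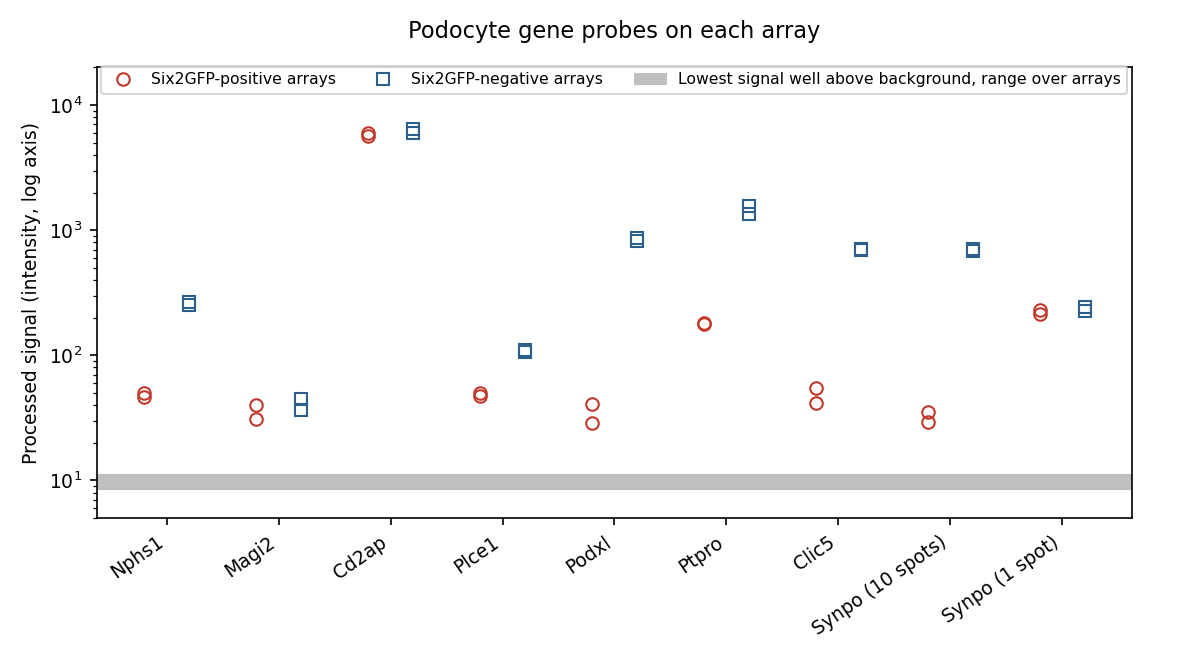
Processed signal of each probe (log axis, intensity) on the 2 Six2GFP-positive arrays (circles) and the 2 Six2GFP-negative arrays (squares), with a grey band for the lowest signal well above background on the 4 arrays, 8.48 to 11.1. The positive arrays lie below the negative ones for Nphs1, Plce1, Podxl, Ptpro, Clic5 and the 10-spot Synpo probe, and close to them for Magi2, Cd2ap and the 1-spot Synpo probe.

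Nphs1 encodes nephrin, the adhesion protein that gives the slit diaphragm its structure. Its probe, at mm9 chromosome 7, 31273569 to 31273628, had a signal of 49.8 and 46.8 in positive cells, against 267 and 250.5 in negative cells. The arrays of each group lay close together and the groups far apart. The log2 difference was -2.25 ± 0.09 (SE, n = 2 arrays per group; 95% interval -2.50 to -2.0; limma adjusted p = 6.2e-04), which is 4.77-fold lower in positive cells. The signal in positive cells was still above the lowest signal called well above background.

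Among the cytoplasmic partners of nephrin, the phospholipase gene moved and the adaptors did not pass the test. Plce1, a phospholipase C whose loss causes nephrotic syndrome in humans, had a signal of 47.0 and 49.5 in positive cells, against 106 and 110.2 in negative cells (probe at chromosome 19, 38857137 to 38857196). Its log2 difference of -1.0 ± 0.09 was the smallest of the called probes (95% interval -1.25 to -0.74; limma adjusted p = 0.00380). Cd2ap, the adaptor that couples nephrin to actin, had a signal of 5942 and 5705 in positive cells, against 6445 and 5966 in negative cells (probe at chromosome 17, 42930324 to 42930383). Relative to each array's 75th percentile, that is 2.06 and 2.02 in positive cells, against 2.01 and 1.91 in negative cells, so the groups barely separate. The log2 difference was 0.08 ± 0.09, with a 95% interval of -0.17 to 0.33 (limma adjusted p = 0.524).

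Magi2, a scaffold protein of the slit diaphragm, was dim on every array. Its signal was 40.2 and 31.1 in positive cells, against 44.5 and 36.7 in negative cells, and the groups overlapped (probe at chromosome 5, 20167092 to 20167151). The log2 difference was -0.02 ± 0.17, and its 95% interval of -0.51 to 0.46 is the widest among the uncalled probes (limma adjusted p = 0.920). The file lists this probe for several Magi2 transcripts, and which of them it binds was not tested.

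The apical genes gave larger differences. Podxl, the sialoprotein that keeps foot processes apart by its negative charge, had a signal of 28.8 and 41.1 in positive cells, against 870 and 815 in negative cells (probe at chromosome 6, 31470405 to 31470464). Positive array 2 was above positive array 1 by 0.54 log2, the widest gap between replicates among the 9 probes, and both lay far below the negative arrays. Podxl was 21.8-fold lower in positive cells (log2 difference -4.45, 95% interval -5.02 to -3.87) and ranked 312 from the bottom of all 30013 probes by log2 difference. Ptpro, a receptor tyrosine phosphatase of the apical foot process membrane, had a signal of 180 and 177 in positive cells, against 1547 and 1337 in negative cells (probe at chromosome 6, 137411402 to 137411461). The positive arrays were almost equal, and the log2 difference was -2.84 ± 0.11, or 7.17-fold lower (limma adjusted p = 5.7e-04).

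Clic5, a chloride intracellular channel family protein that works with ezrin and podocalyxin beneath the apical membrane, had a signal of 54.8 and 41.5 in positive cells, against 712 and 696 in negative cells (probe at chromosome 17, 44416979 to 44417038). The negative arrays differed by only 0.02 log2 and the positive arrays by 0.38. The log2 difference was -3.72 ± 0.16, or 13.1-fold lower (limma adjusted p = 7.0e-04). Ezr, the linker protein itself, had a log2 difference of 0.01 ± 0.12 (limma adjusted p = 0.943).

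**Figure D2:**
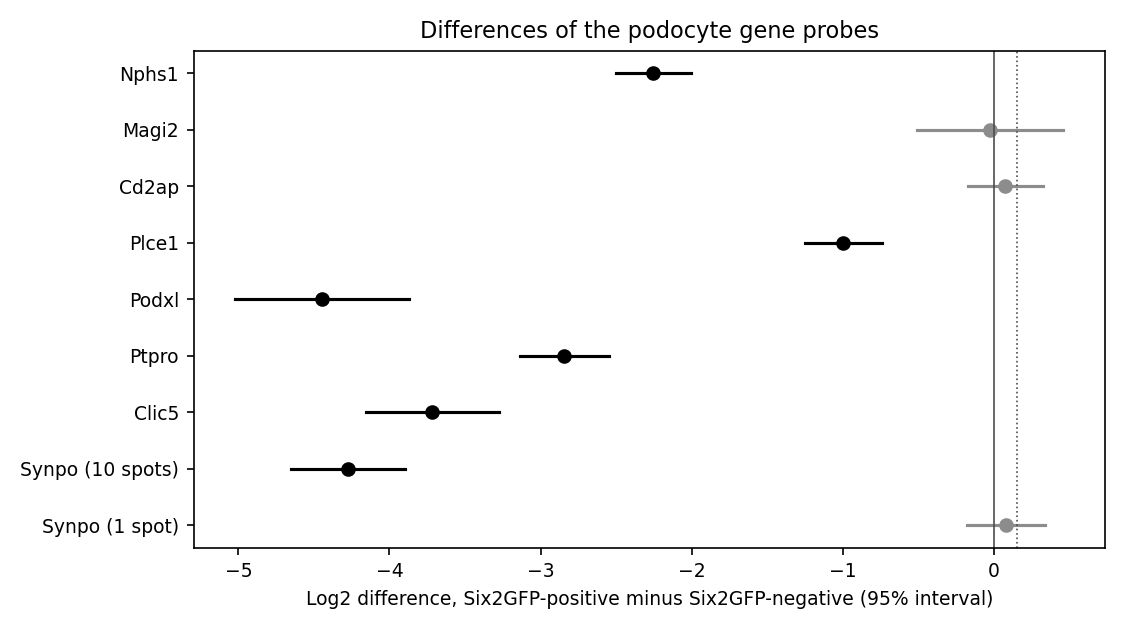
Log2 difference of each probe, Six2GFP-positive minus Six2GFP-negative, with limma's 95% interval; black marks an adjusted p under 0.05 and grey the rest, the solid line is 0 and the dotted line the median of all probes tested, 0.15. Called probes run from -4.45 (Podxl) to -1.0 (Plce1), and the intervals of Magi2, Cd2ap and the 1-spot Synpo probe include 0.

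Synpo, which encodes synaptopodin, an actin-bundling protein of foot processes, was read by 2 probes that gave different results. The probe printed in 10 spots lies at chromosome 18, 60753644 to 60753691, and the one printed in 1 spot lies at 60759861 to 60759920. The first interval is shorter than a 60-base probe, so it does not place the whole probe. Both are on the minus strand, and the file lists them under different RefSeq transcripts of the gene. On the 10-spot probe, the spots used had a median signal of 28.8 and 35.9 in positive cells, against 692 and 709 in negative cells. Spots ranged from 24.8 to 36.1 and from 29.5 to 42.6 on the positive arrays, and from 645 to 723 and from 686 to 751 on the negative arrays, so no spot of one group reached the other. A further spot on positive array 2, at 118, carried the scanner's outlier mark and was left out.

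With the 10-spot probe Synpo was 19.3-fold lower in positive cells (log2 difference -4.27 ± 0.14; 95% interval -4.65 to -3.89; limma adjusted p = 5.1e-04). The 1-spot probe had a signal of 228 and 213 in positive cells, against 243 and 226 in negative cells. Relative to the 75th percentile these were -2.65 and -2.73 in positive cells, against -2.72 and -2.81 in negative cells, and the groups overlapped. Its log2 difference was 0.08 ± 0.09 (95% interval -0.18 to 0.34; limma adjusted p = 0.528), and the intervals of the 2 probes do not meet. A summary by the probe of highest mean signal would take the 1-spot probe (0.08, adjusted p = 0.527), while the mean of both gives -2.10 (limma adjusted p = 7.7e-04). With quantile normalization the 1-spot probe was higher in positive cells by 0.31 (limma adjusted p = 0.0426), and with normexp background correction and quantile normalization by 0.23 (limma adjusted p = 0.0428). Which transcripts each probe binds was not tested.

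**Figure D3:**
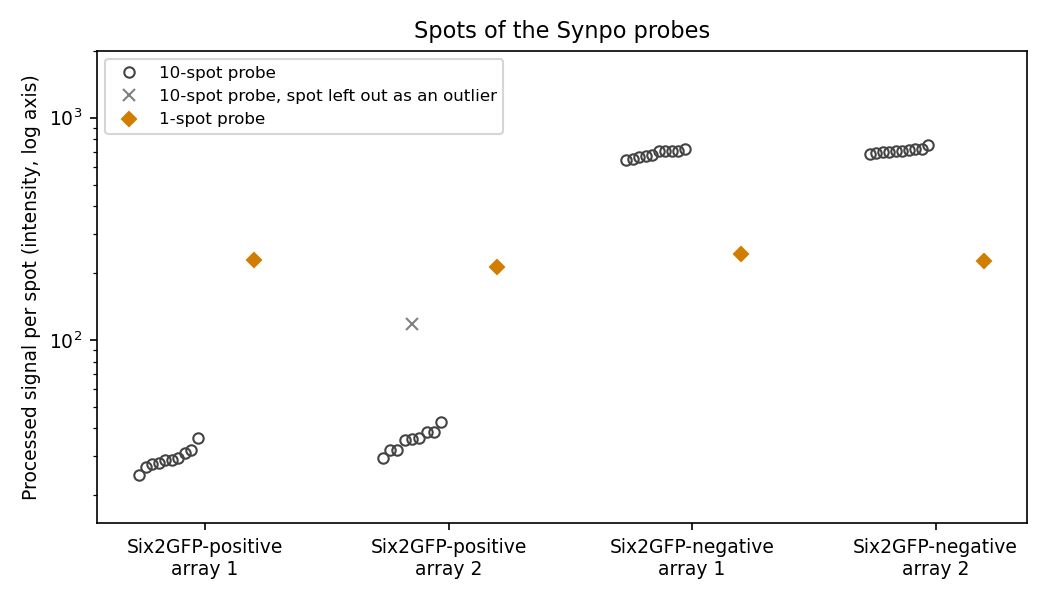
Processed signal (log axis, intensity) of each spot of the Synpo probes on the 4 arrays, spots sorted within an array; open circles are the 10-spot probe, the cross is the spot left out and diamonds are the 1-spot probe. The circles run from 24.8 to 42.6 on the Six2GFP-positive arrays and from 645 to 751 on the Six2GFP-negative arrays, while the diamonds stay between 213 and 243.

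The size of these folds depended on background correction. With normexp correction at an offset of 50 in place of the scanner's own, the folds were 8.35 for Podxl, 7.11 for the 10-spot Synpo probe, 6.07 for Clic5, 2.55 for Nphs1 and 1.34 for Plce1, all still lower in positive cells and past the threshold, while Ptpro was 5.67-fold lower. An offset raises dim signals most, and apart from Ptpro these probes had signals of 28.8 to 54.8 in positive cells. The differences of Cd2ap, Magi2 and the 1-spot Synpo probe were below the median of all probes by 0.08, 0.18 and 0.07 log2, and centring on the array median, which adds 0.25 to every difference, put Magi2 above 0 at 0.23.

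The positive arrays did not share an order over the members. Array 1 was above array 2 for 6 of 9 probes, with gaps between -0.54 (Podxl) and 0.38 log2 (Clic5) and a median of 0.04. Markers of the proximal tubule were higher on array 1 for 9 of 10 probes with a median gap of 0.80. For the ureteric bud it was 10 of 10 probes with a median of 0.38. The count was 5 of 8 for stroma, 6 of 9 for the early nephron, 5 of 12 for endothelium and 3 of 9 for nephron progenitors. The negative arrays had array 1 above array 2 for 7 of 9 member probes. With any 1 array left out, the 6 called member probes kept negative log2 differences. These ran from -4.71 to -4.18 for Podxl, the largest, and from -1.04 to -0.95 for Plce1, the smallest.

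The other 4 lists of podocyte genes, chosen with earlier results of these data known, were read in the same fit. Over their 49 genes and 71 probes, 31 probes were lower and 11 higher in positive cells. Both counts fell with any 1 array left out. Of all 30013 probes tested, 18.2% were lower and 21.1% higher, which is the share to set beside these counts and those of each list below. Over the 66 of these probes well above background on all 4 arrays, 27 were lower and 11 higher. That fit tested only probes well above background on all 4 arrays, 27618 in all, of which 4418 were lower and 6766 higher. With the array median, 24 of the 71 list probes were lower and 16 higher, against 4654 and 13562 of all 30013. With no filter on dim probes, 24 of 73 list probes were lower and 8 higher, against 4742 and 3391 of all 39395.

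Of 16 other slit diaphragm genes, read by 23 probes, 8 probes were lower and 3 higher, with a median log2 difference of -0.36. Kirrel2, a relative of nephrin, had a signal of 3.56 and 2.84 in positive cells, not well above background, against 35.3 and 36.1 in negative cells, and was at least 2.95-fold lower (limma adjusted p = 6.5e-04). For such bounds the positive arrays were set at the lowest signal called well above background on each, while the p is that of the measured values and does not test the bound; such probes entered the fit through the negative cells alone. The 3 higher probes were all of the polarity gene Pard3, with a range over its 4 probes of 0.28 to 0.51. Kirrel was among the lower genes well above background on all 4 arrays, at -1.34 ± 0.16 (limma adjusted p = 0.00739). Its 3 probes ranged from -1.34 to -0.69, and not all passed the test. The kinase gene Fyn and the adaptor genes Nck1 and Nck2, which relay signals from nephrin, did not pass it. Their log2 differences were -0.45, 0.16 and -0.15.

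Of 12 podocyte cytoskeleton genes, read by 15 probes, 7 probes were lower and none higher, with a median of -0.36. Arhgap24, a GTPase-activating protein gene, had a signal of 4.12 and 3.27 in positive cells, also not well above background, against 45.5 and 37.2 in negative cells, and was at least 3.41-fold lower (limma adjusted p = 9.5e-04). Pdlim2, an actin-associated adaptor gene, was 2224 and 1900 in positive cells, against 9160 and 9153 in negative cells, a log2 difference of -1.99 ± 0.11. Actn4, the actinin of foot processes, had a log2 difference of -0.36 ± 0.11 (limma adjusted p = 0.0643).

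Podocyte transcription factors were divided. Of 9 genes read by 14 probes, 5 probes were lower and 7 higher, with a median of 0.56. Wt1, which acts both in progenitors and in podocytes, was 59619 and 58221 in positive cells, against 29970 and 29683 in negative cells (1.15 ± 0.08, limma adjusted p = 0.00206). Foxc1 was higher by 1.77 ± 0.10, with 12587 and 13732 in positive cells, against 4413 and 4259 in negative cells. Dach1 was lower, at -1.39 ± 0.09 (limma adjusted p = 0.00146), and its second probe gave -1.30.

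Of 12 matrix and secreted protein genes, read by 19 probes, 11 probes were lower and 1 higher, with a median of -0.40. Col4a3, a collagen chain of the glomerular basement membrane, had a signal of 2.43 and 2.71 in positive cells, again not well above background, against 28.4 and 24.3 in negative cells, and was at least 2.17-fold lower (limma adjusted p = 6.2e-04). Npnt, which encodes nephronectin, had a log2 difference of -2.80 ± 0.15, and its second probe gave -2.61. The member that was higher was Bmp7 (1.15 ± 0.28, limma adjusted p = 0.0400).

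**Figure D4:**
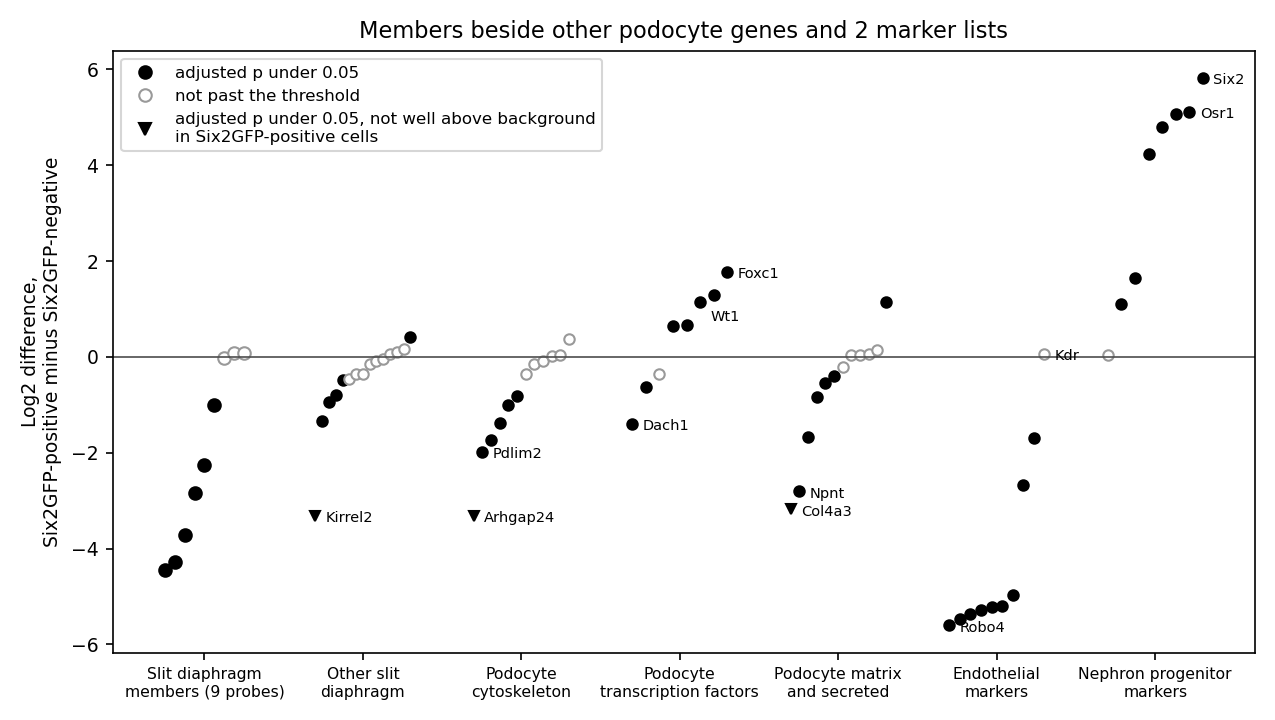
Log2 difference, Six2GFP-positive minus Six2GFP-negative, of the 9 member probes (left) and of other genes. The others are most genes of 4 podocyte lists and the genes of 2 marker lists, with 1 probe per gene, that of highest mean signal. Filled symbols have an adjusted p under 0.05. Triangles mark genes not well above background on the positive arrays. They are drawn at the measured difference, and the bounds given in the text are smaller. The transcription factors drawn spread from -1.39 (Dach1) to 1.77 (Foxc1), and the endothelial markers reach -5.60 (Robo4).

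Markers of other cells in the negative fraction moved with the members. For endothelium, which also makes podocalyxin, 11 of 12 probes of 10 genes were lower in positive cells, among them those of Robo4 and Cdh5. The summed signal of these genes, 1 probe each and in multiples of each array's 75th percentile, was 6.96 and 6.62 in positive cells, against 23.7 and 22.0 in negative cells. Without Kdr, left out after its values were seen, the sum over the other 9 genes was 0.870 and 0.900 in positive cells, against 17.7 and 16.7 in negative cells. Of the 10 genes, 9 were well above background on both positive arrays, and Kdr gave 0.07 with its probe of highest signal but -5.29 with the other. Probes lower in positive cells were 9 of 10 for the ureteric bud, including Ret and Gata3. They were 7 of 8 for stroma, including Pdgfra and Tbx18, and 9 of 9 for the early nephron, including Dkk1 and Lhx1. For the proximal tubule they were 8 of 10, including Hnf4a. Of all probes tested, 18.2% were lower. Tbx18 had a signal of 3.84 and 5.08 in positive cells, not well above background, and entered the fit through the negative cells alone. Over all marker lists, nephron progenitors included, 44 of 58 probes were lower. Among those well above background on all 4 arrays it was 40 of 54. Nephron progenitor markers went the other way, with 8 of 9 probes higher, against 21.1% of all probes tested. Among the 8 are the probe of Osr1 and the 2 probes of Six2, the gene whose reporter was sorted on. Eya1, with a log2 difference of 0.04, did not pass the test. The part of any of these cell types in the signals of Podxl, Clic5, Ptpro, Nphs1, Synpo and Plce1 was not tested.

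The genes whose pattern over the 4 arrays lay nearest to that of Nphs1 were Dkk3, Cgn, Tgfbr3, Vwce and a transcript the file describes as tripartite motif-containing protein 47. Likeness was the root mean square distance of log2 values centred on each probe's mean, over 22291 genes well above background on all arrays, and it was 0.01, 0.02, 0.03, 0.03 and 0.03 for these genes. Dkk3 had a signal of 687 and 653 in positive cells, against 3708 and 3517 in negative cells, and Cgn, a tight junction protein gene, 280 and 270 in positive cells, against 1518 and 1439 in negative cells. Among the members Ptpro was nearest to Nphs1, at 0.30, and ranked 634. With 4 arrays this measure mostly reads the size of the difference between groups.

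Promoter windows from RefSeq ran from 250 bases before to 50 bases after a transcript start in GRCm38.p6. For 6 of the 8 genes, 7 windows were searched. Podxl had no window, and Synpo was left out of the search. Those of Nphs1, Ptpro and Clic5, which were lower together, are shown beside that of Cd2ap, which did not pass the test, in lower case with motif matches in capitals.
Nphs1, chr7:30459808-30460107, plus strand: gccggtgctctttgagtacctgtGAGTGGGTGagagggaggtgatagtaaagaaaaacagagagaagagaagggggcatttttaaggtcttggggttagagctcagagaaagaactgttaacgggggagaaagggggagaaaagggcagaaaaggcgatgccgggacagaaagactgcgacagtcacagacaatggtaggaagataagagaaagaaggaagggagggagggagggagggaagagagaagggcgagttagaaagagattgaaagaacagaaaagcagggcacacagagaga
Ptpro, chr6:137252049-137252348, plus strand: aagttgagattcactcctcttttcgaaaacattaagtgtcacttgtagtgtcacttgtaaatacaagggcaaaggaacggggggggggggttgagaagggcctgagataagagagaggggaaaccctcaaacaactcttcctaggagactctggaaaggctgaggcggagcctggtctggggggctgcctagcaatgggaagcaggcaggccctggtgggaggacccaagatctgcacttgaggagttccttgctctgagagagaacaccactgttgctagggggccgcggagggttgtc
Clic5, chr17:44188322-44188621, plus strand: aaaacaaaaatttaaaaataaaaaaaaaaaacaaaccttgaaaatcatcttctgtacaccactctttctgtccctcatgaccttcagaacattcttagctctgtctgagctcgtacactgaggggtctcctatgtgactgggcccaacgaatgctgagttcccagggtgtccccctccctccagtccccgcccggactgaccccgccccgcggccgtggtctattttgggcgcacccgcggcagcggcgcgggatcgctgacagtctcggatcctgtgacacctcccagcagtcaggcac
Cd2ap, chr17:42876375-42876674, minus strand: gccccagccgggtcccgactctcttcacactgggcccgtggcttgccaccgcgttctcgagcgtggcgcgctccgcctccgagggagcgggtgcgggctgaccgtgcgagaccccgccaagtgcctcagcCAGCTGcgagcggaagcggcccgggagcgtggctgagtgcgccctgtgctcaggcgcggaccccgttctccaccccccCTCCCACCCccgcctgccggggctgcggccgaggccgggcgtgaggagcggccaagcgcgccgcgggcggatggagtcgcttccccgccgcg

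Motifs were searched on both strands, and no match overlapped another motif's match. The WT1 motif GNGTGGGNG was found at -227 from the start of Nphs1, at -42 from that of Cd2ap and at -119 from that of 1 Magi2 window, and 14.3% of all 32851 windows hold it. The E-box CAGCTG was found in the Cd2ap window and the same Magi2 window, against 16.3% of all windows, and the homeodomain core TAATTA in the other Magi2 window, against 5.29%. The windows of Ptpro, Clic5 and Plce1 held none of these. The forkhead motif GTAAACA (3.65%) and the TATA box TATAAA (13.6%) were in none of the 7 windows searched. These are letter matches within the windows and describe neither binding nor its absence.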

How the data were processed

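RNA of sorted cells was labelled with Cy3, per the labels' protocols, and hybridised to Agilent arrays of design 026655. Per the file headers, the deposited intensity of each spot is the processed signal of Feature Extraction 10.7.3.1, background-subtracted and detrended within the array but not normalized between arrays; positions are mm9. The deposited series table holds the same linear intensity: 99.8% of probes on each array lay within 0.01 log2 of the scanner value, with column medians of 114, 110, 158 and 144 (positive arrays, then negative).

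Spots with the scanner's outlier mark (108 to 174 an array) were removed, spots of a probe were averaged on the log2 scale, and each array's 75th percentile of log2 values was subtracted. A probe was tested where 1 group or both had it well above background on every array, 30013 in all; 34 probes with only outlier spots on an array were dropped. Limma 3.58.1 in R 4.3.3 (lmFit, eBayes, two-sided, Benjamini-Hochberg over all probes) compared the groups per probe; errors are SE. The fit was also run on data simulated under its own assumptions, which cannot test those assumptions. Members and lists were chosen with earlier results of these data known. Named genes were all members, the 2 largest called differences of each list (1 probe a gene, that of highest mean signal), and Wt1 and Six2 always; some genes the rule names are not reported here, and others were chosen after their values were seen. Alternatives were quantile normalization, array median, normexp, the series table, other filters, gene-level summaries, an intensity trend, the replicate block, leaving out each array and, added after seeing the data, the median of spots.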

Additional observations from a re-analysis of the deposited data

How the results depend on the processing

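Podxl, Clic5, Ptpro, Nphs1, Plce1 and the 10-spot Synpo probe kept their direction and stayed past the threshold under every alternative run for them, with log2 differences of -4.71 to -3.03, -3.91 to -2.54, -2.94 to -2.43, -2.29 to -1.24, -1.04 to -0.36 and -4.42 to -2.79. With all 4 arrays, 6 member probes were lower in every fit per probe. With the probe of highest signal per gene, 5 of 8 genes were lower because the 10-spot Synpo probe is then not used. Of all 24151 genes tested that way, 4413 were lower. With the mean of a gene's probes it was 6 of 8 genes, against 4516 of 24151. The number of member probes higher was 1, the 1-spot Synpo probe, with quantile normalization alone or after normexp, and 0 otherwise.

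Differences near 0 changed sign without passing the threshold. Magi2 was 0.27 with quantile normalization, 0.23 with the array median, 0.078 with normexp, 0.090 with normexp and quantile normalization, 0.15 without positive array 2 and 0.11 without negative array 1, with a range of -0.20 to 0.15 when 1 array was left out. Cd2ap was -0.059 with quantile normalization and -0.058 with normexp before it. The cause was not tested.

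The number of all probes past the threshold was 11806, of which 53.7% were higher in positive cells; it was 18216 with the array median, of which 74.5% were higher, and 5890 to 6542 with 1 array left out: 6416 and 6011 without positive array 1 and 2, and 6542 and 5890 without negative array 1 and 2. Of these calls 30.02%, 30.4%, 41.0% and 33.1% were higher in positive cells (1926, 1828, 2682 and 1949 probes, against 6343 with all arrays), and with no filter on dim probes 41.7% of 8133 were. Fewer arrays leave fewer residual degrees of freedom, and the lone array is assumed to vary like the others. Podocyte list probes were 31 lower and 11 higher, and both counts fell when 1 array was left out. Of the 49 list genes, 21 were lower and 7 higher with the probe of highest signal. With the mean of a gene's probes, 23 were lower and 5 higher. The replicate number as a block gave 11103 probes past the threshold, 6 member probes lower and 28 list probes lower; differences between the arrays of a group correlated at 0.22 over probes between the groups, and nothing in the labels ties the numbers to shared litters. No scanner spot was saturated. Dim signals limit Magi2 on all arrays and Podxl, Synpo, Clic5, Nphs1, Plce1, Kirrel2, Arhgap24 and Col4a3 in positive cells.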
